A study of Mus musculus with 32 samples.

Results

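The 10 genes described here encode ligands and inhibitors of TGF-beta, activin and BMP signalling, and they were chosen by symbol: Tgfb1, Tgfb2, Tgfb3, Inhba, Inhbb, Bmp2, Bmp7, Fst, Bambi and Smad7. All 10 were found among the 55401 gene identifiers of the deposited tables, and all 10 were among the 15546 genes that reached at least 1 cpm (a read count scaled to library size) in at least 1 mouse. Inhba reached that level in UV-exposed mice only, so its passing the filter and its difference after UV are not independent. Epidermal RNA came from 32 mice of 10 to 14 weeks on a mixed SKH-1/SV129/BL6/J background, 1 mouse per library. Of these, 8 mice were wild type without UV (WT Control), 8 were wild type and had received UV at 120 mJ/cm2 on the back once, 24 h earlier (WT UV), and 8 and 8 littermates labelled Ppard-/- were treated in the same ways (KO Control, KO UV). Each set of 8 held 4 males and 4 females. Control mice were handled in the same way without the lamp. Ppard encodes the nuclear receptor PPARβ/δ. How the allele was built is not given in the sources used here, and KO stands below for the label.

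TGF-beta ligands, activins and BMPs are secreted dimers of a single superfamily. They bind pairs of type I and type II receptor kinases, which phosphorylate SMAD proteins. SMAD2 and SMAD3 carry the TGF-beta and activin signal to the nucleus, and SMAD1, SMAD5 and SMAD9 carry the BMP signal. In skin these ligands are known for restraining keratinocyte division, for wound repair and for hair follicle cycling, and follistatin and the inhibitory SMADs are known to limit them.

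Each library had 22919428 to 40653581 reads assigned to genes. Keratinocyte markers were high in every library. The summed level of 6 suprabasal markers (Krt1, Krt10, Lor, Ivl, Flg and Sbsn) lay between 59141 and 103856 cpm in the Control mice and between 7348 and 30217 cpm in the UV mice, where 5 of the 6 fell in WT and 6 of 6 in KO. Their part in the values below was not tested. The targeted gene was still read in the KO libraries: Ppard ranged from 70.3 to 88.9 cpm in KO Control and from 87.3 to 105 cpm in WT Control (log2 difference -0.26 ± 0.07 SE, edgeR adjusted P = 0.16). After UV it was lower in KO, at 175 to 239 cpm against 252 to 326 cpm (-0.42 ± 0.07, adjusted P = 0.0011). Counts per whole gene cannot show which part of a gene was removed, so these values do not check the label. Of the 32 genes that differed between genotypes without UV, 13 (40.6%) were on chromosome 17, which carries Ppard and 4.88% of the genes tested, and no member is on that chromosome. The KO UV female 54F stood apart from the other 31 libraries in fibroblast and macrophage markers. Its 6 dermal fibroblast markers summed to 1659 cpm against 1.85 to 80.5 cpm in the others, and its 6 macrophage and monocyte markers to 799 cpm against at most 281 cpm. The main results include 54F, and several values that rest on it are also given without it. The sum of 6 skeletal muscle markers (Acta1, Myh4, Ckm, Tnnt3, Mylpf and Tnnc2) varied widely within every group. It was 11.5 to 1492 cpm in WT Control, 4.10 to 2381 cpm in WT UV, 8.57 to 2757 cpm in KO Control and 3.79 to 1963 cpm in KO UV. None of the 6 passed the test of UV against Control in either genotype. Their part in the values below was not tested either.

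The first question was how a single UV dose changed these genes in WT epidermis. All 10 passed the test (edgeR quasi-likelihood, Benjamini-Hochberg adjusted P under 0.05 over all genes tested). UV raised 7 members, where 34.5% of all genes tested rose, and lowered 3, where 36.5% fell. The activin subunit gene Inhba and the activin antagonist gene Fst rose most of the members, and Bmp2 fell most. The 8 UV mice lay entirely above the 8 Control mice for 5 members and entirely below them for 1, against 43.4% of all genes with ranges that did not overlap. In KO mice 7 members rose (37.3% of all genes) and 2 fell (33.5%). Tgfb3 did not pass there. The ranges were again separate for 6 members, against 35.1% of all genes. The median log2 fold change of the members was 1.10 in WT and 1.48 in KO, beside -0.01 and 0.09 over all genes.

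**Figure D1:**
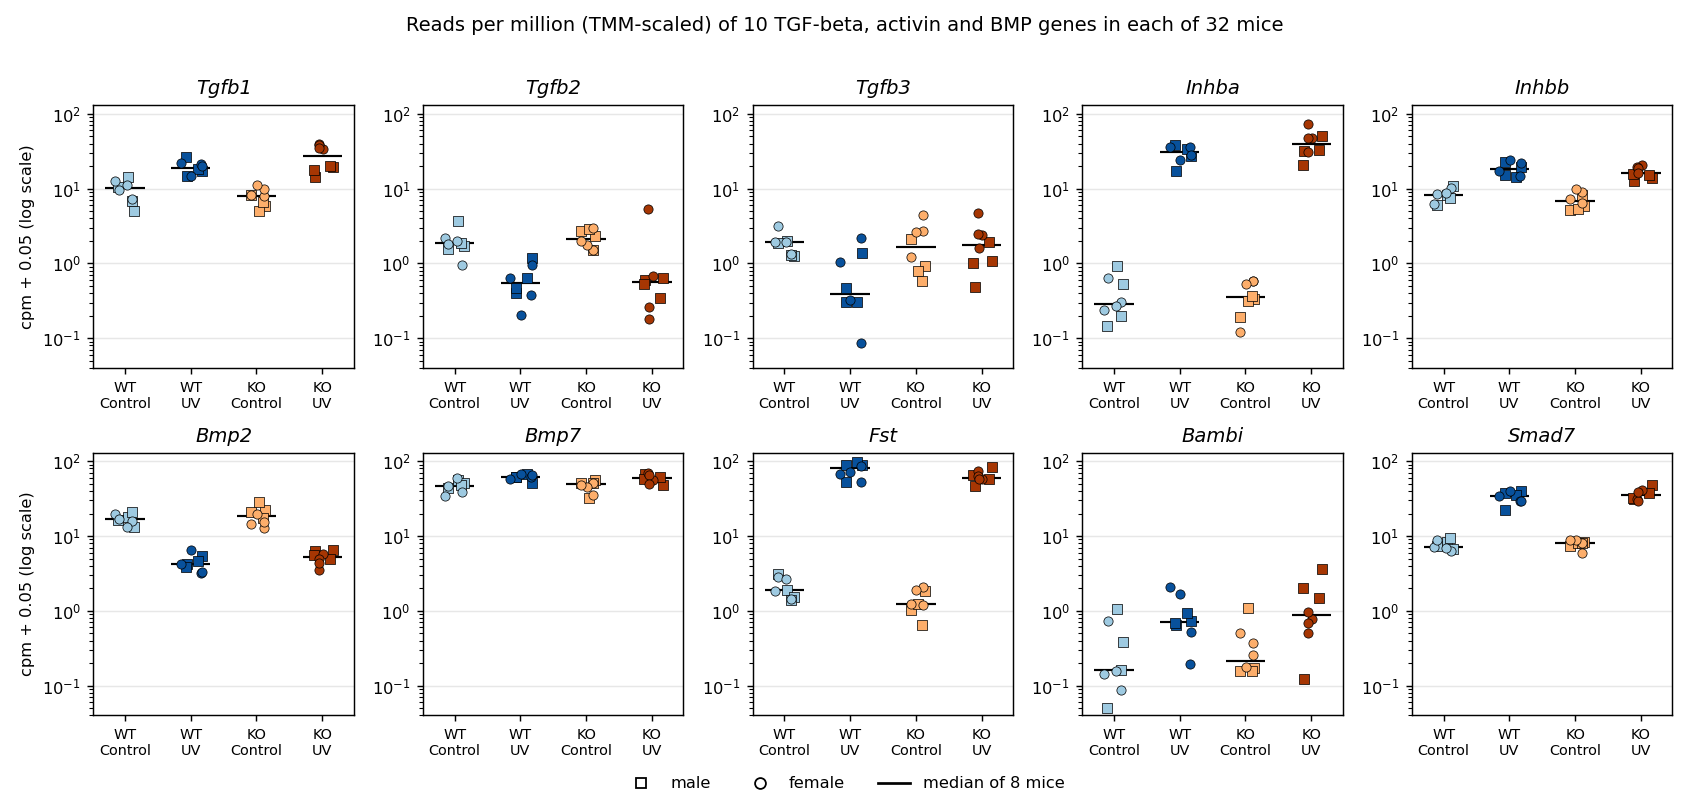
Level of each gene in each of the 32 mice, in TMM-scaled cpm plus 0.05 on a log axis, by genotype and treatment (squares males, circles females, bar the median of 8 mice). Inhba and Fst show the widest gap between Control and UV, Bmp2 lies lower after UV in both genotypes, and 1 KO UV female lies far above the rest of its group for Tgfb2.

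Inhba encodes the βA chain of activin A. Without UV it was close to the detection limit, with 3 to 24 reads per WT mouse. In WT Control mice Inhba ranged from 0.0956 to 0.875 cpm (median 0.239), and in WT UV mice from 17.2 to 38.4 cpm (median 31.0, mean 30.0 ± 7.19 SD, n = 8). The lowest UV mouse thus lay above the highest Control mouse. The difference was 6.41 ± 0.35 on the log2 scale (SE, adjusted P = 5.5e-15), the 61st largest rise among 15546 genes. In KO mice Inhba ranged from 0.0709 to 0.540 cpm in Control (median 0.301) and from 20.5 to 71.9 cpm after UV (median 39.9), a log2 difference of 6.97 ± 0.36 (adjusted P = 1.9e-15). These folds stand on Control counts of a few reads and are imprecise. Inhbb encodes the βB chain of activins B and AB, and was expressed without UV. It ranged from 5.89 to 10.6 cpm in WT Control (median 8.25) and from 14.4 to 24.3 cpm in WT UV (median 18.4), a log2 rise of 1.2 ± 0.14 (adjusted P = 1.3e-08). In KO mice Inhbb ranged from 5.06 to 9.88 cpm (median 6.76) and from 12.7 to 20.6 cpm (median 15.9), a rise of 1.23 ± 0.14 (adjusted P = 8.7e-09). Every UV mouse lay above every Control mouse of its genotype for Inhbb too.

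RefSeq promoters of build GRCm38.p6 were held for 4 of the 10 members, Inhba, Inhbb, Tgfb1 and Tgfb2. The bases before the start site are shown for Inhba and Tgfb2, a ligand gene that rose and one that fell, with matches to TATAAA (the TATA box) and CAGAC (the SMAD-binding element) in capitals. Inhba lies at chr13:16011851-16031621 on the plus strand and its window at chr13:16011601-16011850, and Tgfb2 at chr1:186622792-186705989 on the minus strand with its window at chr1:186705990-186706239.
Inhba: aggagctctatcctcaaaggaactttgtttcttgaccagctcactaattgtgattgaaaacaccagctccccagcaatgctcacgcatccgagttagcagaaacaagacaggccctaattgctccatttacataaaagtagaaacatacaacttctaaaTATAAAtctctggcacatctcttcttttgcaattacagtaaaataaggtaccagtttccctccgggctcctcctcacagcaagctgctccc
Tgfb2: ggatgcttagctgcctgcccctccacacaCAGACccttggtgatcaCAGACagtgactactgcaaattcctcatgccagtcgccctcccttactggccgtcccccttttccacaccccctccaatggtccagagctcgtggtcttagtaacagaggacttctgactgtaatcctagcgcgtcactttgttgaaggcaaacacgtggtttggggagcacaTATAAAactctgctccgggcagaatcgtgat
TATAAA lies 91 bases before the Inhba start and 31 bases before the Tgfb2 start, and is in 12.4% of 32851 promoter windows of this length on either strand. Tgfb2 has CAGAC at 221 and 204 bases before the start, and 42.2% of all windows hold it. Neither TGANTCA (the AP-1 site, in 6.75% of windows) nor TGACGTCA (the CRE, in 1.55%) is in the 4 member windows, and Inhbb and Tgfb1 had no match to any of the 4 motifs. These are matches of letters and were not tested for binding. The Tgfb2 window overlaps annotated exon sequence and the Inhba window does not.

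Levels of different genes were compared as cpm per kilobase of annotated exon. Of the summed Inhba and Inhbb level per kilobase, Inhba made up 1.07 to 6.74% in WT Control mice and 39.9 to 61.9% in WT UV mice. In KO the share was 0.649 to 5.32% in Control and 46.7 to 72% after UV. Nearly all activin subunit RNA was thus Inhbb without UV. After UV the median Inhba share was 50.5% in WT and 60.9% in KO.

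Fst encodes follistatin, a secreted protein that binds activins and keeps them from their receptors. In WT mice it ranged from 1.35 to 3.09 cpm in Control (median 1.83) and from 53.0 to 98.5 cpm after UV (median 80.0, mean 76.4 ± 17.5 SD, n = 8), a log2 rise of 5.21 ± 0.22 (adjusted P = 2.6e-17). It was the 141st largest rise of all genes tested. In KO mice Fst ranged from 0.589 to 2.05 cpm (median 1.18) and from 46.8 to 83.0 cpm (median 60.5), a rise of 5.58 ± 0.23 (adjusted P = 1.7e-17). Annotated exons of an antisense gene overlap 2.51% of the Fst exon bases. Groups did not overlap in either genotype. Activin subunit and antagonist thus rose together, and per kilobase the Fst level stayed above the Inhba level in each of the 32 mice. The ratio of Fst to Inhba per kilobase was 2.62 to 4.61 in WT UV mice (median 3.70) and 1.22 to 4.39 in KO UV mice (median 2.24). In WT Control mice it was 2.96 to 45.0, where Inhba had 3 to 24 reads.

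**Figure D2:**
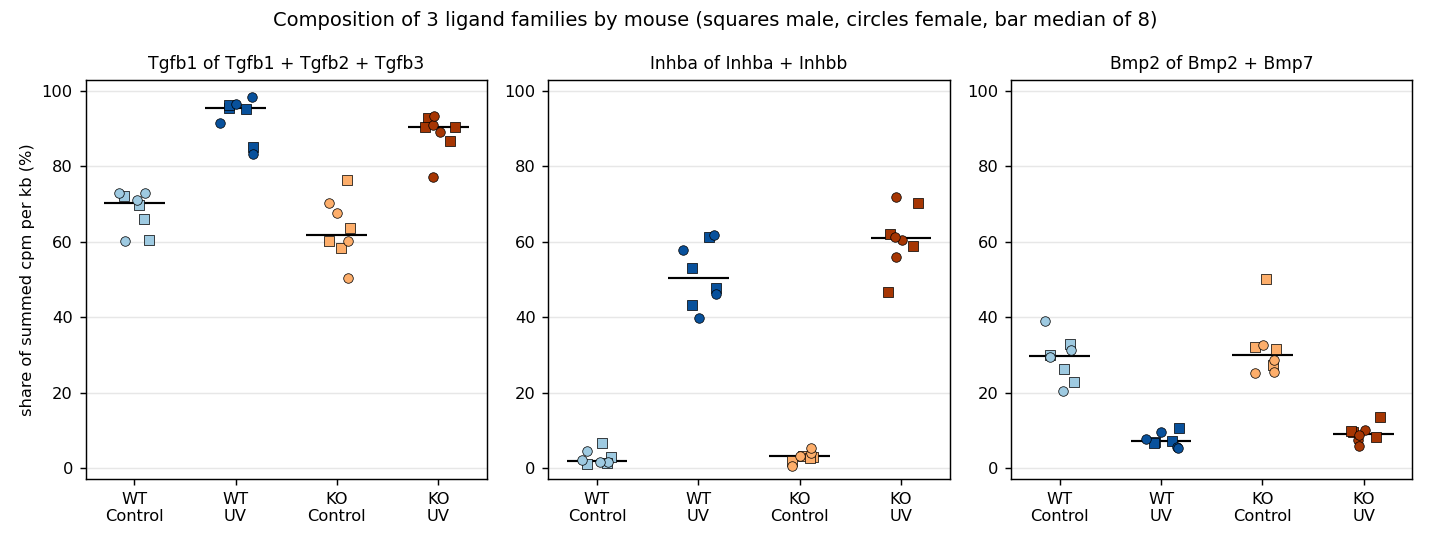
Share of Tgfb1 in the 3 TGF-beta ligands, of Inhba in both activin subunits and of Bmp2 in Bmp2 plus Bmp7, in percent of the summed cpm per kilobase of exon, 1 point per mouse (squares males, circles females, bar the median of 8). In both genotypes the Tgfb1 and Inhba shares lay higher and the Bmp2 share lower in every UV mouse than in every Control mouse.

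The 3 TGF-beta ligand genes did not move together. Tgfb1, the most widely expressed of them, rose in both genotypes. In WT it ranged from 5.01 to 14.2 cpm in Control (median 9.97) and from 14.6 to 26.7 cpm after UV (median 19.0, mean 19.2 ± 4.04 SD, n = 8), a log2 rise of 1.00 ± 0.17 (adjusted P = 5.8e-06). In KO mice it ranged from 5.01 to 11.2 cpm in Control (median 8.0) and from 14.3 to 39.1 cpm after UV (median 26.8), a log2 rise of 1.73 ± 0.17 (adjusted P = 7.1e-10). Without 54F the KO UV median was 20.3 cpm and the log2 rise 1.73 ± 0.18. The lowest UV mouse was above the highest Control mouse in each genotype.

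Tgfb2 and Tgfb3 were low in all mice, at medians of at most 55.5 reads per library in any of the 4 groups. In WT mice Tgfb2 ranged from 0.889 to 3.68 cpm in Control (median 1.81) and from 0.154 to 1.13 cpm after UV (median 0.503), a fall of 1.79 ± 0.50 on the log2 scale (adjusted P = 0.0024). The groups overlapped. In KO mice Tgfb2 ranged from 1.45 to 2.90 cpm in Control (median 2.09) and from 0.131 to 5.22 cpm after UV (median 0.510), and fell by 1.32 ± 0.49 (adjusted P = 0.019). The value of 5.22 cpm is that of mouse 54F, and the other 7 KO UV mice had at most 0.622 cpm, below every KO Control mouse. Without 54F the log2 difference was -2.44 ± 0.37 (adjusted P = 1.5e-06).

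Tgfb3 ranged from 1.22 to 3.13 cpm in WT Control and from 0.0363 to 2.15 cpm in WT UV (medians 1.86 and 0.344), a fall of 1.35 ± 0.48 (adjusted P = 0.014). In KO mice it ranged from 0.536 to 4.35 cpm (median 1.61) and from 0.433 to 4.67 cpm (median 1.72), a difference of 0.03 ± 0.47 (adjusted P = 0.95). Without 54F the KO difference was -0.14 ± 0.48 (adjusted P = 0.80). Annotated antisense genes overlap 7.6% and 4.82% of the Tgfb3 exon bases and 2.14% of those of Tgfb2, and the strand setting of the counting is not given in the sources used here.

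In WT, dermal fibroblast markers were lower after UV too. Their sum (Col1a1, Col1a2, Col3a1, Lum, Pdgfra and Pdgfrb) was 12.0 to 68.5 cpm in WT Control and 1.85 to 7.56 cpm in WT UV, where 3 of the 6 fell and none rose. In KO it was 2.13 to 80.5 cpm in Control (median 37.6) and, without 54F, 5.97 to 26.1 cpm after UV (median 9.92). None of the 6 passed the test in KO, but that test kept 54F with its 1659 cpm of markers. Single mice went both ways. The KO Control female 69F had the lowest sum of its group, 2.13 cpm, with 1.95 cpm of Tgfb2. The WT Control male 43M had the highest sum of its group, 68.5 cpm, with its highest Tgfb2 level, 3.68 cpm. The KO Control female 44F had the highest sum of its group, 80.5 cpm, with 1.47 cpm of Tgfb2 and its highest Tgfb3 level, 4.35 cpm. The KO UV female 54F had the highest sum and the highest Tgfb2 and Tgfb3 levels of all mice, Tgfb3 at 4.67 cpm. These mice were picked as examples. No fibroblast marker was at 0 in all mice of a group. Their part in the falls of Tgfb2 and Tgfb3 was not tested. In bulk RNA, fewer cells of a type and less RNA per cell cannot be told apart. Of the summed level of the 3 ligand genes per kilobase, Tgfb1 made up 60.2 to 73.1% in WT Control and 83.4 to 98.4% in WT UV, and 50.3 to 76.3% and 77.3 to 93.4% in KO. Without 54F the KO UV share was 86.8 to 93.4%.

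**Figure D3:**
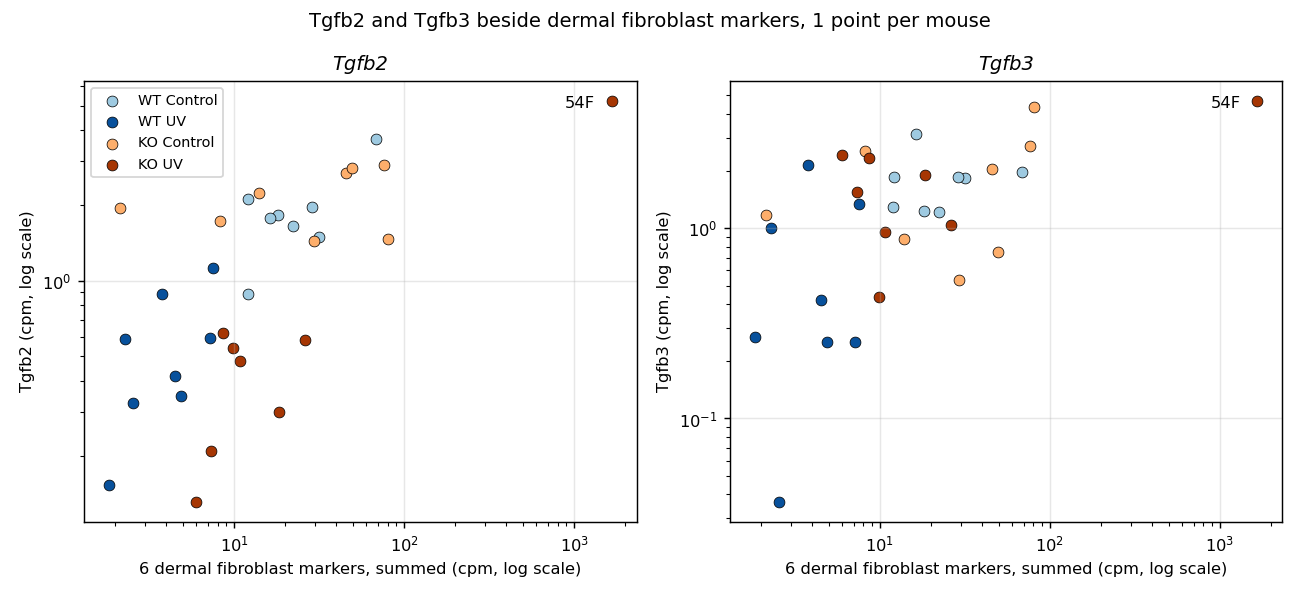
Tgfb2 (left) and Tgfb3 (right) in cpm against the summed cpm of 6 dermal fibroblast markers, both on log axes, 1 point per mouse. The KO UV female 54F lies alone at 1659 cpm of markers, with 5.22 cpm of Tgfb2 and 4.67 cpm of Tgfb3, and the WT UV mice lie between 1.85 and 7.56 cpm of markers.

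Both BMP ligands were well expressed without UV and went opposite ways. Bmp2 ranged from 13.2 to 20.7 cpm in WT Control (median 16.8) and from 3.20 to 6.39 cpm in WT UV (median 4.2, mean 4.37 ± 1.06 SD, n = 8), a fall of 1.94 ± 0.15 (adjusted P = 3.2e-12). In KO mice Bmp2 ranged from 12.6 to 28.6 cpm (median 18.3) and from 3.48 to 6.50 cpm (median 5.21), a fall of 1.85 ± 0.15 (adjusted P = 8.5e-12). Every UV mouse was below every Control mouse. Bmp7, the most abundant BMP ligand of the list per kilobase, ranged from 34.4 to 59 cpm in WT Control (median 46.8) and from 51.1 to 67.7 cpm in WT UV (median 62.2). In KO it ranged from 32.3 to 55.3 cpm (median 49.6) and from 47.4 to 69.2 cpm (median 59.2). Its rise was small, 0.39 ± 0.11 in WT (adjusted P = 0.0027) and 0.36 ± 0.11 in KO (adjusted P = 0.0056), and groups overlapped in both genotypes. The share of Bmp2 in the summed Bmp2 and Bmp7 level per kilobase was 20.3 to 39.0% in WT Control and 5.34 to 10.5% in WT UV.

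Both intracellular and membrane-bound inhibitors of the list rose. Smad7, an inhibitory SMAD that blocks type I receptors and is itself induced by TGF-beta, ranged from 6.34 to 9.23 cpm in WT Control (median 7.15) and from 22.6 to 40.1 cpm in WT UV (median 34.7, mean 33.4 ± 6.06 SD, n = 8). Its log2 rise was 2.14 ± 0.12 in WT (adjusted P = 1.3e-14) and 2.19 ± 0.12 in KO (adjusted P = 9.3e-15), where it ranged from 5.97 to 8.94 cpm (median 8.03) and from 29.6 to 48.3 cpm (median 34.9). The groups did not overlap. Bambi, a receptor-like membrane protein that lacks a kinase domain and blocks signalling, was at the edge of detection. Per mouse it had 0 to 28 reads in WT Control and 4 to 59 reads in WT UV. Its level ranged from 0 to 1.02 cpm (median 0.111) and from 0.145 to 2.04 cpm (median 0.660), and its log2 rise was 1.59 ± 0.70 (adjusted P = 0.046). In KO mice Bambi ranged from 0.106 to 1.06 cpm (median 0.166) and from 0.0721 to 3.60 cpm (median 0.828), a rise of 1.83 ± 0.70 (adjusted P = 0.022). The groups overlapped. The WT call was lost when any of 15 single mice was left out, at values of 1.33 to 1.63 on the log2 scale. These were the WT Control males 54M, 56M and 69M and females 61F, 71F and 73F, the WT UV males 32M, 38M, 57M and 71M and females 57F and 77F, and the KO mice 44F, 52F and 72M. The KO call was lost without the KO UV male 58M (1.5 ± 0.72, adjusted P = 0.064).

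**Figure D4:**
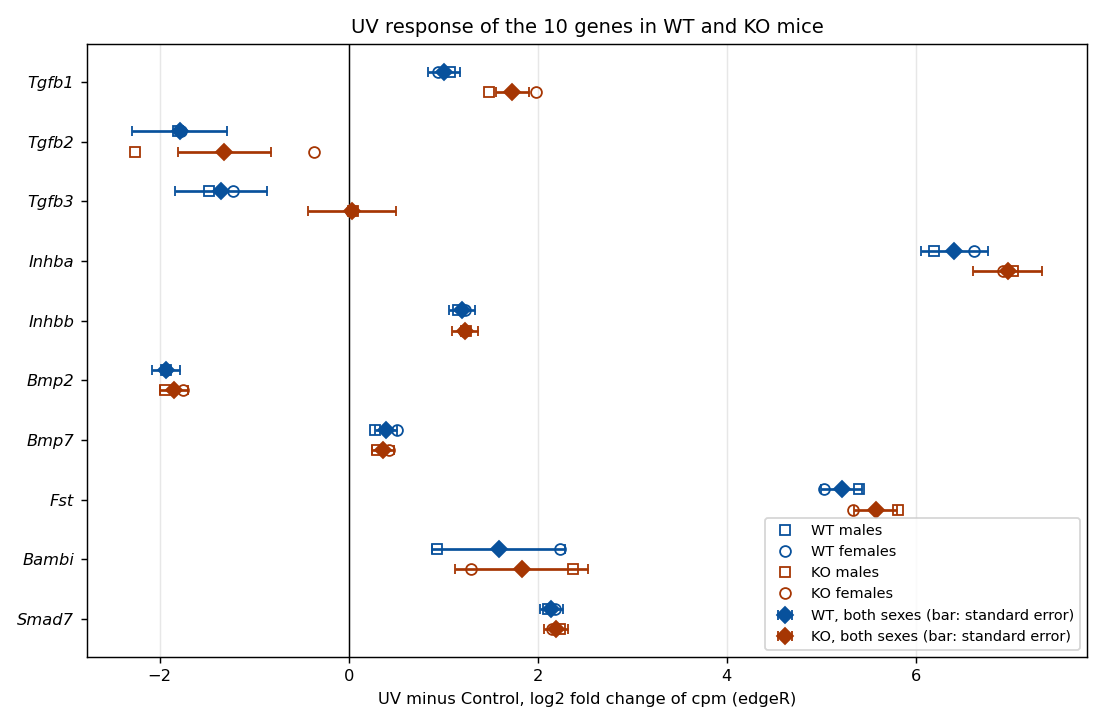
Log2 fold change of UV against Control for each gene in WT (blue) and KO (brown) mice, with both sexes averaged (diamond, bar the standard error) and in males (squares) and females (circles). The values of both genotypes lie close together for Inhbb, Bmp2, Bmp7 and Smad7, and far apart between the sexes for Tgfb2 in KO mice, where the female value includes mouse 54F.

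Per kilobase, Bmp7 was the highest member in WT Control epidermis (median 11.6 cpm per kilobase) and Bmp2 the next (4.72), with separate ranges. Tgfb1 (1.98), Inhbb (1.94) and Smad7 (1.58) followed with overlapping ranges, then Tgfb3 (0.548), Fst (0.400) and Tgfb2 (0.313), which overlapped too, and Inhba (0.0374) and Bambi (0.0219) were lowest. After UV, Fst (17.4) and Bmp7 (15.5) led with overlapping ranges. Smad7 (7.68), Inhba (4.86), Inhbb (4.34) and Tgfb1 (3.77) followed, each overlapping its neighbour. Bmp2 (1.18) stood apart below them, and Bambi (0.130), Tgfb3 (0.102) and Tgfb2 (0.0869) overlapped at the bottom.

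The next question was whether the response differed between genotypes. The test of the difference itself called none of the 10 members, where 0.765% of all genes were called, and 2 members, Tgfb1 and Tgfb3, had an unadjusted P under 0.05, as did 3042 of the 15546 genes, a like share. DESeq2 and limma called none either. The UV rise of Tgfb1 was larger in KO by 0.73 on the log2 scale (95% interval 0.24 to 1.21, adjusted P = 0.11). For Tgfb3 the difference was 1.39 (0.00 to 2.77, adjusted P = 0.25), and for Inhba 0.56 (-0.44 to 1.57, adjusted P = 0.55). The difference was bounded most closely for Bmp7 (-0.03, interval -0.36 to 0.30), Smad7 (0.05, -0.30 to 0.40), Inhbb (0.03, -0.37 to 0.43) and Bmp2 (0.09, -0.32 to 0.50). It was hardly bounded for Bambi (0.25, -1.80 to 2.30) and Tgfb2 (0.47, -0.95 to 1.90). Without 54F the Tgfb2 difference turned to -0.69 ± 0.48 (adjusted P = 0.45). Those of Tgfb1 and Tgfb3 were then 0.69 ± 0.24 (adjusted P = 0.14) and 1.17 ± 0.67 (adjusted P = 0.35).

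Between the genotypes without UV, 0.206% of all genes were called and no member, and all ranges overlapped. After UV, 3.31% of all genes were called and again no member. By unadjusted P, 1 member without UV and 2 after UV were under 0.05, as were 1324 and 3121 of the 15546 genes. The members' counts are near these shares. Without UV the member was Fst, with a log2 difference KO minus WT of -0.63 ± 0.22 (adjusted P = 0.38). After UV, Tgfb3 was 1.30 ± 0.48 higher in KO on the log2 scale (adjusted P = 0.13) and Tgfb1 0.41 ± 0.17 (adjusted P = 0.16). Leaving out the WT UV female 59F brought the Tgfb3 difference to 1.78 and past the threshold (adjusted P = 0.046). DESeq2 and limma called no member in either comparison.

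The study was designed to compare the sexes. The sex difference in the UV response called no gene in WT (0.0% of all genes) and none in KO (0.0%) with edgeR. By unadjusted P, 419 and 1482 genes but no member were under 0.05, and DESeq2 called 3 and 35 genes, again without a member. Between females and males 6.86% of all genes differed without UV and 3.03% after UV, with no member among them. By unadjusted P it was 1 member each, Bmp2 without UV and Tgfb1 after UV, and 3898 and 3175 of the 15546 genes. Without UV, Bmp2 had a log2 difference females minus males of -0.30 ± 0.14 (adjusted P = 0.18). That of Tgfb1 without UV was 0.34 ± 0.17 (adjusted P = 0.20). After UV, Tgfb1 was higher in females by 0.52 ± 0.17 on the log2 scale (adjusted P = 0.072, DESeq2 adjusted P = 0.039). It passed the threshold without the WT Control male 43M (0.52, adjusted P = 0.046) or the WT UV male 57M (0.61, adjusted P = 0.044). Without 54F, the mouse with the highest Tgfb1 level, it was 0.50 ± 0.17 and further from the threshold (adjusted P = 0.14). The KO UV females had 33.4, 39.1, 38 and 35.3 cpm and the KO UV males 19.4, 14.3, 20.3 and 17.6 cpm. All 4 KO females were above all 4 KO males. Inhbb was split in the same way, at 16.3 to 20.6 cpm in KO UV females and 12.7 to 15.6 cpm in KO UV males. How many of all genes split this way was not counted. In the same 8 mice, summed markers of other cells also did not overlap: endothelial markers were at 15.1 to 26.9 cpm in females and 4.65 to 9.61 cpm in males, Langerhans cell markers at 565 to 947 and 425 to 517 cpm, and dendritic epidermal T cell markers at 54 to 77.4 and 30.9 to 52.1 cpm. All 3 sums overlapped between the sexes in WT UV mice. Their part in the Tgfb1 difference was not tested. In WT the UV females had 21.1, 14.6, 20.0 and 21.7 cpm and the UV males 14.6, 17.2, 26.7 and 18 cpm, which overlapped. The UV response of Tgfb1, females minus males, differed by 0.49 ± 0.33 in KO (adjusted P = 0.71) and by -0.13 ± 0.33 in WT. Neither difference passed. Within each sex the test called 7 members in WT males (60.9% of all genes), 8 in WT females (61.3%), 8 in KO males (61.7%) and 7 in KO females (60.7%). Bmp7 passed in females of both genotypes (0.51 and 0.42, adjusted P = 0.0072 and 0.024) and had 0.28 and 0.30 in males (adjusted P = 0.13 and 0.10), a difference between sexes that did not pass in WT (0.23 ± 0.22) or KO (0.12 ± 0.22). The KO female call of Bmp7 was lost without the KO mouse 44F, 54F, 58M or 66F, at 0.32 to 0.37 on the log2 scale (adjusted P = 0.067 to 0.10). It was also lost with filterByExpr (0.33, adjusted P = 0.082), no filter (0.34, 0.13) and separate fits of the genotypes (0.40, 0.057). In KO females Tgfb2 differed by -0.36 ± 0.67 with 54F (adjusted P = 0.67) and by -2.64 ± 0.56 without it (adjusted P = 0.00022). With 54F kept, limma gave -1.70 ± 0.66 (adjusted P = 0.029). In KO males it fell by 2.27 ± 0.72 (adjusted P = 0.0081).

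The rest of the pathway was read from 89 other genes listed by role, of which 68 were tested. In WT, 22 rose and 24 fell, and in KO 28 rose and 21 fell, shares close to those of all genes given above. The median log2 fold change of these genes was -0.11 in WT and 0.36 in KO. The KO counts and median include 54F. Among the genes that rose in KO, Fstl1 passed with 54F (1.71, adjusted P = 0.043). Without 54F it did not (-0.58 ± 0.47, adjusted P = 0.27). Among 9 other ligand genes tested, 2 rose and 2 fell in WT. Bmp4, a BMP close to Bmp2 in sequence, fell by 1.91 ± 0.13 in WT (adjusted P = 3.8e-13) and by 1.51 ± 0.13 in KO (adjusted P = 4e-11). Among 13 receptor genes 4 rose and 6 fell in WT. Acvrl1, which encodes the type I receptor ALK1, rose by 2.69 ± 0.25 in WT and 3.13 ± 0.25 in KO. ALK1 is known from endothelial cells, whose 6 markers summed to 1.46 to 5.67 cpm in WT Control and 4.31 to 11.3 cpm in WT UV, and their part in the Acvrl1 rise was not tested. Tgfbr3, which encodes the coreceptor betaglycan, fell by 2.25 ± 0.22 in WT and by 1.30 ± 0.21 in KO, or by 1.65 ± 0.14 without 54F.

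Among 14 SMAD genes and SMAD regulators 5 rose and 5 fell in WT. Smad3, a carrier of the TGF-beta and activin signal, ranged from 8.62 to 13.8 cpm in WT Control and from 56.9 to 83.4 cpm in WT UV, a rise of 2.64 ± 0.12 (adjusted P = 1.7e-16), and rose by 2.51 ± 0.12 in KO. Tgif1, a nuclear corepressor of SMADs, rose by 1.77 ± 0.13 in WT and 2.23 ± 0.13 in KO. Of 13 secreted antagonists 3 rose and 4 fell in WT. Sostdc1, a BMP antagonist, ranged from 18.1 to 61.1 cpm in WT Control and from 0.291 to 2.73 cpm in WT UV. It fell by 5.09 ± 0.31 in WT (adjusted P = 5e-14) and by 3.57 ± 0.29 in KO. Dand5, another secreted antagonist, rose by 1.98 ± 0.22 in WT and 2.15 ± 0.22 in KO, at no more than 3.56 cpm in any mouse. Secreted antagonists therefore went both ways, with Fst up and Sostdc1 down.

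TGF-beta is secreted in a latent form that is held in the matrix or on cells. Among 10 genes of latent storage and activation 5 rose and 3 fell in WT, and 7 rose and 3 fell in KO. Ltbp1, which tethers latent TGF-beta to the matrix, rose by 4.00 ± 0.33 in WT, from at most 2.42 cpm to at least 12.5 cpm, and by 4.25 ± 0.33 in KO. Lrrc32, which holds latent TGF-beta on the cell surface, fell by 3.51 ± 0.24 in WT and by 2.96 ± 0.24 in KO. Of 9 genes known to be induced through SMADs 3 rose and 4 fell in each genotype. Ldlrad4, an inhibitor of TGF-beta signalling, fell by 3.90 ± 0.26 in WT and by 2.78 ± 0.25 in KO. All values named in these paragraphs for WT and KO passed the test.

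**Figure D5:**
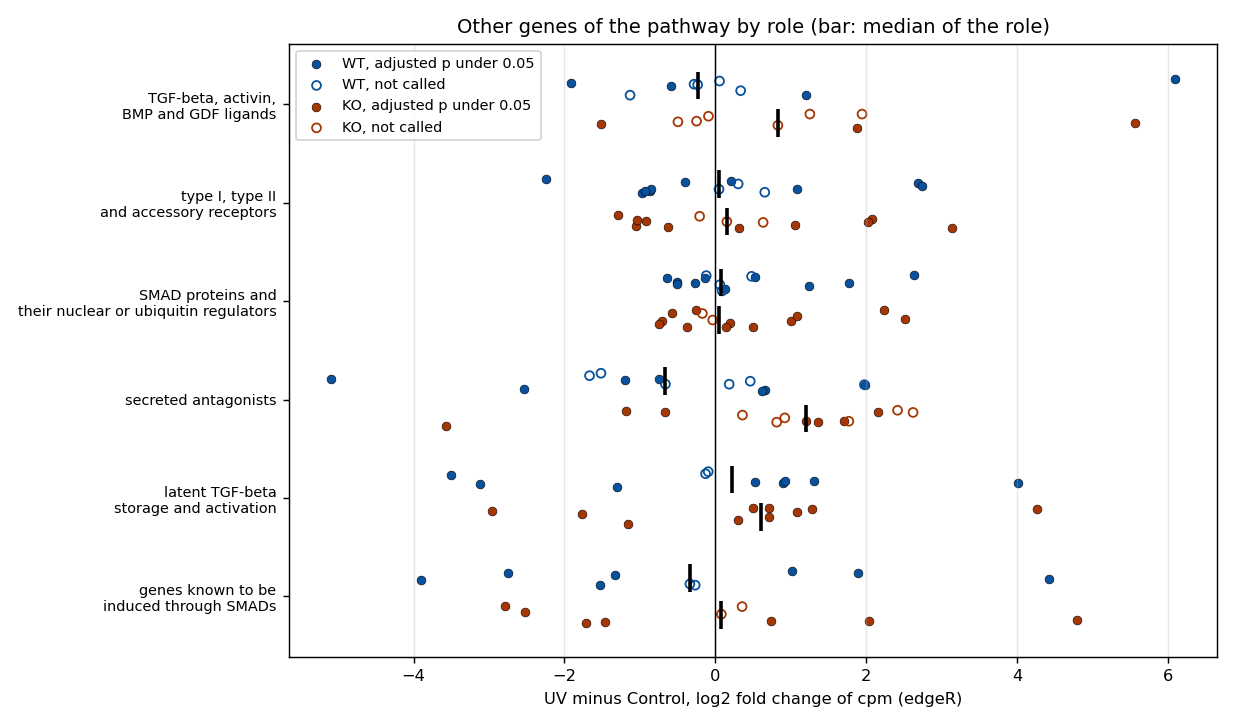
Log2 fold change of UV against Control for the 68 other pathway genes tested, by role, in WT (blue) and KO (brown) mice (filled points passed adjusted P under 0.05, bars mark the median of each role). Each role holds genes that rose and genes that fell in both genotypes.

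Which genes varied most like a member from mouse to mouse was read after the mean of each of the 8 groups was taken off, over 13085 genes with a mean of at least 1 cpm and 32 mice. For Inhba, the member with the largest rise, these were F10 (Pearson r = 0.69), Ccr1 (0.66) and Clec7a (0.66). F10 encodes coagulation factor X, Ccr1 a chemokine receptor and Clec7a the receptor dectin-1. All 3 rose after UV in both genotypes, by 2.25 to 3.84 on the log2 scale in WT. For Bmp2, the member with the largest fall in WT, they were Zcchc10 (r = 0.74), Fam110a (0.71) and Stk17b (0.70), which rose after UV by 2.25, 0.48 and 1.25 in WT. The order is a description of these 32 mice and has no test. Their libraries were prepared alike and differ in depth as given above. RNA quality was not taken into account. Inhba had 3 to 24 reads per WT Control mouse and 2 to 15 per KO Control mouse. F10, Ccr1 and Clec7a had means of 1.27, 2.76 and 5.92 cpm. The correlations with Inhba thus rest in part on counts near the detection limit. Macrophage and monocyte markers, the cells known for Ccr1 and Clec7a, summed to 45.5 to 105 cpm in WT Control and 104 to 172 cpm in WT UV, where 3 of the 6 rose and 1 fell. Their part in the Inhba values was not tested.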

How the data were processed

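Dorsal epidermis was separated from dermis and RNA of 32 mice was sequenced from stranded poly(A) libraries. According to the submitters' processing notes, the authors trimmed reads with cutadapt 1.8, aligned them to GRCm38 with STAR 2.5.3a and counted them with HTSeq 0.9.1, and they deposited raw read counts per gene for each mouse. The strand setting of the counting is not given in the sources used here. Lines that name no gene were left out of library sizes. Reads on no feature were 6.80 to 9.75% of the uniquely aligned reads. Groups came from the labels.

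The test took in 15546 of 55401 genes, those that reached 1 cpm (counts scaled to library size) in 1 or more mice. Counts were scaled by TMM (factors 0.864 to 1.09) and fitted with edgeR 4.0.16 (R 4.3.3) as 8 group means of genotype, treatment and sex, and contrasts were tested by quasi-likelihood with Benjamini-Hochberg adjustment over all genes at 0.05. P-values measure the spread between mice, and the comparisons of both genotypes or sexes share mice. Standard errors were derived from the quasi-likelihood F value, and 95% intervals use 24 residual degrees of freedom. The script was tested on simulated data. The members and lists were chosen with earlier results of these data known. Pathway genes were named by a rule: in each role, up to 2 genes of largest WT change that passed in both genotypes with a mean of at least 1 cpm. The result of 1 gene named by this rule is not reported here. Genes most like a member were the 3 of highest Pearson r. Alternatives were RLE and upper-quartile scaling, DESeq2 1.42.0, limma-trend 3.58.1, filterByExpr, no filter, separate fits by genotype, robust dispersion, each sex alone, and each mouse left out in turn.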

Additional observations from a re-analysis of the deposited data

Results flagged for a closer look

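In the 80 groups of 4 mice of the 10 members, 7 held 1 mouse far from the other 3 by Dixon's ratio at its 95% critical value, which chance exceeds in about 1 in 20 groups. Tgfb2 was at 5.22 cpm (180 reads) in the KO UV female 54F, against 0.131 to 0.622 cpm in the other 3 females, and this mouse also had the high fibroblast markers. Tgfb2 was at 3.68 cpm in the WT Control male 43M against 1.5 to 1.84 cpm. Tgfb3 was at 1.35 cpm in the WT UV male 38M against 0.253 to 0.419 cpm. The other 4 stand on few reads. Inhba was at 0.0709 cpm (2 reads) in the KO Control female 69F against 0.480 to 0.540 cpm, and at 0.595 cpm (15 reads) in the WT Control female 63F against 0.190 to 0.259 cpm. Bambi was at 1.06 cpm (24 reads) in the KO Control male 52M against 0.106 to 0.120 cpm, and at 0.674 cpm (17 reads) in the WT Control female 63F against 0.0370 to 0.11 cpm.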

How the results depend on the processing

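Of 867 log2 fold changes of members and named genes under other settings, 830 kept their direction and their side of the threshold, 19 lost the call, 6 gained it and 12 changed sign. With each mouse left out the counts were 3136, 45, 15 and 36 of 3232. DESeq2 gave no adjusted P for 8 values. The sign changes were in values that did not pass the test: Tgfb3 in KO with filterByExpr (-0.0114) and no filter (-0.0138), and in KO females with RLE (-0.0182), DESeq2 (-0.0192), filterByExpr (-0.0791) and no filter (-0.0731). The genotype difference in the UV response changed sign for Inhbb with RLE (-0.0046), DESeq2 (-0.0074), filterByExpr (-0.0059) and no filter (-0.0162), and with limma for Tgfb2 (-0.11) and Bambi (-0.25). The cause was not tested. With 1 mouse left out, Tgfb3 ranged from -0.18 to 0.31 in KO, from -0.37 to 0.59 in KO males and from -0.36 to 0.36 in KO females. Tgfb2 ranged from -2.64 to 0.0061 in KO females and from -0.40 to 2.26 for the KO sex difference. The genotype differences ranged from -0.69 to 0.68 for Tgfb2, from -0.0507 to 0.0974 for Inhbb, from -0.47 to 0.99 for Bambi and from -0.0566 to 0.0829 for Smad7. The WT call of Bambi was lost with no filter (adjusted P = 0.059) and separate fits (0.054), and the KO call of Tgfb2 with separate fits (0.053). In males alone the WT call of Bmp7 was lost (0.28, adjusted P = 0.13), and Tgfb3 passed in neither sex alone in WT with edgeR (adjusted P = 0.066 in males and 0.12 in females), but in males with DESeq2 (-1.45, 0.046) and limma (-1.71, 0.035) and in females with limma (-2.07, 0.012). Members called stayed at 9 to 10 in WT and 8 to 9 in KO with 1 mouse left out, and at 0 to 1 for the genotype difference after UV and the sex differences without UV and after UV. DESeq2 called 1 member for sex after UV. Counts of all genes moved more. The genotype difference in the UV response called 119 genes, 841 with DESeq2, 55 with no filter and 56 to 346 with 1 mouse left out. The genotype difference without UV called 32, 78 with DESeq2 and 20 to 45 with 1 mouse left out. After UV it called 514, 1116 with DESeq2, 260 with limma, 263 with no filter and 133 to 983 with 1 mouse left out. The sex difference in the UV response called 3 in WT with DESeq2, and in KO 35 with DESeq2, 1 with separate fits and 0 to 2 with 1 mouse left out. The sex difference without UV called 1066, 637 with upper-quartile scaling, 1676 with DESeq2, 653 with filterByExpr, 327 with no filter and 464 to 1753 with 1 mouse left out. After UV it called 471, 1196 with DESeq2, 239 with no filter and 117 to 1043 with 1 mouse left out. Depth limits Bambi, Tgfb2, Tgfb3, Inhba and Fst without UV, which had at most 121 reads in any Control mouse. Of these, Fst had 36 to 97 reads in WT Control and 22 to 57 in KO Control.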

Other observations

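Among the 68 other pathway genes tested, a few differed between genotypes, and they are named here after their values were seen. Of all genes tested, 0.765% were called for the genotype difference in the UV response. The UV response differed for Ltbp4, which binds latent TGF-beta in the matrix (1.35 ± 0.29 higher in KO on the log2 scale, edgeR adjusted P = 0.021), and for Smad2, a carrier of the TGF-beta and activin signal (KO minus WT -0.30 ± 0.07, adjusted P = 0.05 as rounded). Without the KO UV female 54F these were 1.08 ± 0.23 (adjusted P = 0.027) and -0.33 ± 0.07 (adjusted P = 0.03). Sostdc1 passed as well without 54F (1.62 ± 0.37, adjusted P = 0.031), and had 1.52 ± 0.39 with it (adjusted P = 0.055). Smad2 did not pass with limma (adjusted P = 0.056), with no filter (adjusted P = 0.065) or without any of 10 single mice, and Ltbp4 not without the WT Control female 61F.

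After UV, 8 of the 68 differed between genotypes, where 3.31% of all genes tested did. Smad2 was lower in KO (-0.24 ± 0.05, adjusted P = 0.014), and Dcn, Fstl1, Nrros, Sostdc1, Ldlrad4, Tgfbr3 and Ltbp4 were higher. Dcn encodes the matrix proteoglycan decorin and Fstl1 a follistatin-like secreted protein. Their differences were 4.48 ± 1.01 (adjusted P = 0.018) and 3.98 ± 0.84 (adjusted P = 0.013). Without 54F, which had 1659 cpm of fibroblast markers, Smad2 (adjusted P = 0.012) and Sostdc1 (adjusted P = 0.018) still passed. The other 6 did not. The difference of Dcn was then 1.42 (adjusted P = 0.20) and that of Fstl1 1.66 (adjusted P = 0.075). Nrros went from 1.27 to 0.78 (adjusted P = 0.12), Tgfbr3 from 0.77 to 0.39 (adjusted P = 0.12) and Ltbp4 from 0.77 to 0.51 (adjusted P = 0.12). The difference of Ldlrad4 hardly moved, from 0.98 to 0.93 (adjusted P = 0.067).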
